A study of Mus musculus with 4 samples.

Results

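Chemokines, interleukins and their receptors were examined in renal tubular epithelial cells of the mouse as a set of 100 genes, out of 18383 genes in the authors' count table. A gene belonged to the set if its symbol began as a numbered CC or CXC chemokine (Ccl, Cxcl), as Cx3cl1, as a numbered chemokine receptor (Ccr, Cxcr) or atypical receptor (Ackr), or as a numbered interleukin or interleukin receptor (Il). By their names and known roles these were 30 chemokine ligands, 14 chemokine receptors of which 3 are atypical, 36 interleukin receptors or decoys, and 20 interleukins and other Il symbols. The last group includes Il4i1, an enzyme that oxidises amino acids, and Il1bos, an RNA antisense to Il1b.

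The cells came from the cortex of kidneys of C57BL/6 mice aged 8 weeks, and polyadenylated RNA was sequenced in bulk. KMS mice (SETD2fl/fl MYCfl/fl KspCre/+) gave 2 libraries and KM mice (MYCfl/fl KspCre/+) gave 2. Both genotypes thus carried the MYCfl/fl alleles and KspCre, in which the promoter of kidney-specific cadherin, a gene of tubular epithelium, drives the Cre recombinase, and only KMS carried the SETD2fl/fl alleles. SETD2 is the enzyme that trimethylates lysine 36 of histone H3, and the series compares renal cells with MYC in the presence and absence of SETD2. The series' design text speaks of triplicates, while 2 libraries per genotype were analysed here. The labels do not say whether replicates are separate animals. Replicate 1 of each genotype held Xist counts (4363 in KMS, 12967 in KM) and replicate 2 held counts of 4 Y-linked genes (1471 in KMS, 3410 in KM), so the replicates of a genotype came from mice of different sex. The spread within a genotype is thus that between 1 such library and the other. Each p-value fitted here rests on this spread together with that of the other tested genes.

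Chemokines are small secreted or membrane-bound proteins that bind G-protein-coupled receptors on leukocytes and set the direction in which these cells move. Atypical receptors bind the same ligands and remove them without the usual signal. Interleukins signal through receptor chains that are often shared: the IL-1 family acts through Myd88 and NF-kappaB, and most other interleukins through Jak kinases and Stat factors. Injured tubular epithelium is known as a source of several of these ligands, whereas most of the receptors for chemokines are known from leukocytes.

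Total counts were 9780050 and 8886496 in KMS against 18639040 and 14955148 in KM, so KM libraries were 1.80 times as deep. Across genes, the log2 levels of replicates correlated at 0.963 in KMS and 0.955 in KM (genes are not independent replicates). Setd2 had 564 and 405 counts in KMS and 1006 and 949 in KM, with a log2 fold change of -0.06 ± 0.17 (SE, edgeR adjusted p = 0.843). A count over the whole gene does not check the deletion, because the floxed part is not given in the labels. Cdh16, the gene of kidney-specific cadherin, was present in every library. In CPM, the count scaled to a library total of 1e+06, it had 1496 and 992 in KMS against 921 and 419 in KM.

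Most members whose genotypes did not overlap were lower in KMS, and KM replicate 2 was the highest library for most of them. Both KMS libraries lay below both KM libraries for 50 of the 100 members, while 33.9% of all genes did so. Both lay above for 8 members, against 25.3% of all genes, and 42 members overlapped between genotypes. KM replicate 2 had the highest CPM in 68 of the 100 members, against 35.4% of all genes. Among the 65 members with a mean of at least 1 CPM, KM replicate 2 was over 3 times KM replicate 1 in 12, which is 18.5% of them, against 2.95% of all genes at that level. No member was called by the edgeR quasi-likelihood test at an adjusted p under 0.05, where 0.0333% of the 15002 tested genes were called. Of the members, 67 passed the filter on low counts and 33 did not. An unadjusted edgeR p under 0.05 was reached by 23 members, 34.3% of the 67 tested, against a background of 26.3% of tested genes. Of these 23, 19 were lower in KMS, 28.4% of the tested members against 14.1% of tested genes. The other 4 were higher, 5.97% against 12.2%. The DESeq2 Wald test called 12 members, 17.9% of the 67, against 11.8% of tested genes. Of these 12, 11 were lower in KMS (5.96% of tested genes) and 1 was higher (5.82%). The limma-voom test called 0. In the authors' deposited table, 3 of the 100 members had an adjusted p under 0.05, against 2.22% of all genes. Il18r1 and Cxcl14 were lower in KMS (0.887% of all genes), and Il11ra1 was higher (1.34%).

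**Figure D1:**
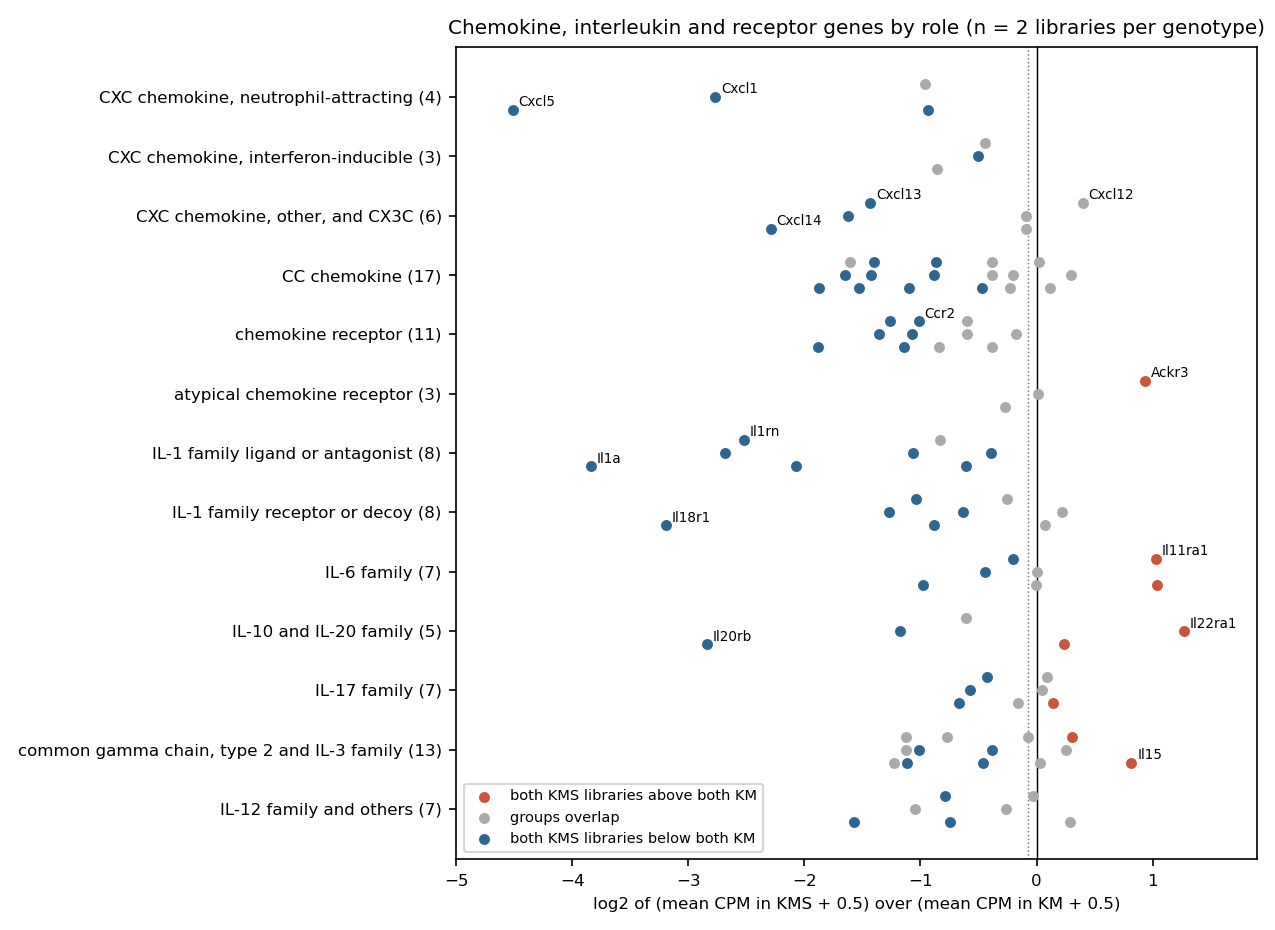
Each point is a member gene, placed by role (number of members in brackets) at the log2 ratio of its mean CPM in KMS over that in KM, after adding 0.5 CPM to both; the dotted line is the median of all 18383 genes, -0.07. Points left of 0 are lower in KMS, and the leftmost are Cxcl5, Il1a and Il18r1.

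These shares differed with the level of expression, and the part of the shallower depth of the KMS libraries in them was not tested. Of all genes in the table, 474 had no read in either KMS library and 2 had none in either KM library, and among the members these numbers were 8 and 0. Among the 35 members with a mean under 1 CPM, 21 had both KMS libraries lowest, which is 60%, against 44.6% of all genes at that level. Between 1 and 10 CPM this held for 22 of 41 members, against 39.8% of genes. At 10 CPM or more it held for 7 of 24 members, against 26.2%, so there the share of members was near the background. Both KMS libraries were highest in 0 of 35, 3 of 41 and 5 of 24 members in the same order of level, against 9.83%, 17.5% and 36.1% of genes.

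**Figure D2:**
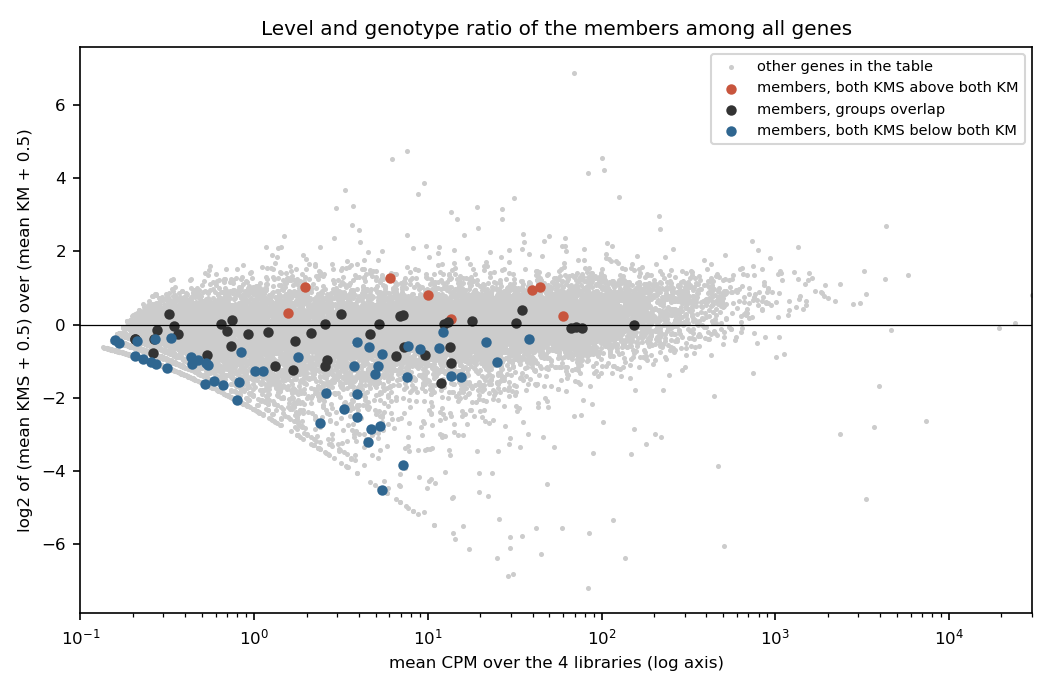
Mean CPM over the 4 libraries (log axis) against the log2 ratio of KMS over KM (after adding 0.5 CPM) for the 100 members in colour and for all other genes in grey. Members with both KMS libraries below both KM libraries lie mostly under 10 CPM, and members at higher levels lie around 0.

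Markers of macrophages and of several other cell types differed between the genotypes beside the members, and in bulk RNA fewer cells of a type and less RNA per cell cannot be told apart. Of 14 macrophage markers, 12 had a row, and none was at 0 in any library. For 11 of them both KMS libraries lay below both KM libraries, against 33.9% of all genes. The summed level of the 12 was 253 and 141 CPM in KMS against 341 and 688 CPM in KM. Of 10 neutrophil markers 8 had a row, with sums of 71.6 and 61.2 CPM in KMS against 102 and 64.5 CPM in KM. Of the 8, 1 was lower and 3 were higher in both KMS libraries, against 33.9% and 25.3% of all genes. The 15 lymphocyte markers with a row, of 16, summed to 16.6 and 12.3 CPM in KMS against 21.6 and 38.6 CPM in KM. Of these, 5 were lower in both KMS libraries and 10 overlapped, a share near the 33.9% of all genes. The 7 dendritic or mast cell markers with a row, of 9, summed to 20.8 and 15.8 CPM in KMS against 63.2 and 66.1 CPM in KM. Kit made up most of these sums, at 13.0 and 10.3 CPM in KMS against 52.7 and 40.7 CPM in KM. Of the 7, 3 were lower in both KMS libraries (42.9%, against 33.9% of all genes) and 4 overlapped.

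Epithelial lists differed between libraries as well. Of all genes in the table, 33.9% were lower and 25.3% higher in both KMS libraries, and 35.4% were highest in KM replicate 2. Markers of injured tubule, 10 of 10 measured, summed to 3252 and 1266 CPM in KMS against 4204 and 9845 CPM in KM, with 9 lower in both KMS libraries. Markers of urothelium, the lining of the renal pelvis, summed to 1.86 and 3.52 CPM in KMS against 20.9 and 175 CPM in KM. All 9 of 10 that had a row were highest in KM replicate 2, and Krt5, Krt14 and Krt17 had 0 counts in both KMS libraries. Of 10 proximal tubule markers, 9 were higher in both KMS libraries, and the list summed to 17353 and 29759 CPM in KMS against 9757 and 6806 CPM in KM. Kap, the exception, had 56.7 and 14945 CPM in KMS against 1482 and 829 CPM in KM, so that it made up about as much of the sum of KMS replicate 2 as the other markers together. Distal tubule markers overlapped in their sums, at 5732 and 3750 CPM in KMS against 3957 and 1405 CPM in KM. Of these 10, 6 were higher in both KMS libraries, 2 were lower (Atp6v1g3 and Foxi1) and 2 overlapped. Endothelial markers overlapped in their sums, at 1108 and 668 CPM in KMS against 1072 and 871 CPM in KM. Of these 8, 2 were higher in both KMS libraries, which is 25%, near the 25.3% of all genes, and 6 overlapped. Fibroblast markers summed to 104 and 97.7 CPM in KMS against 165 and 211 CPM in KM, with 7 of 8 lower in both KMS libraries. The part of any of these cell types in the values of the members was not tested.

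**Figure D3:**
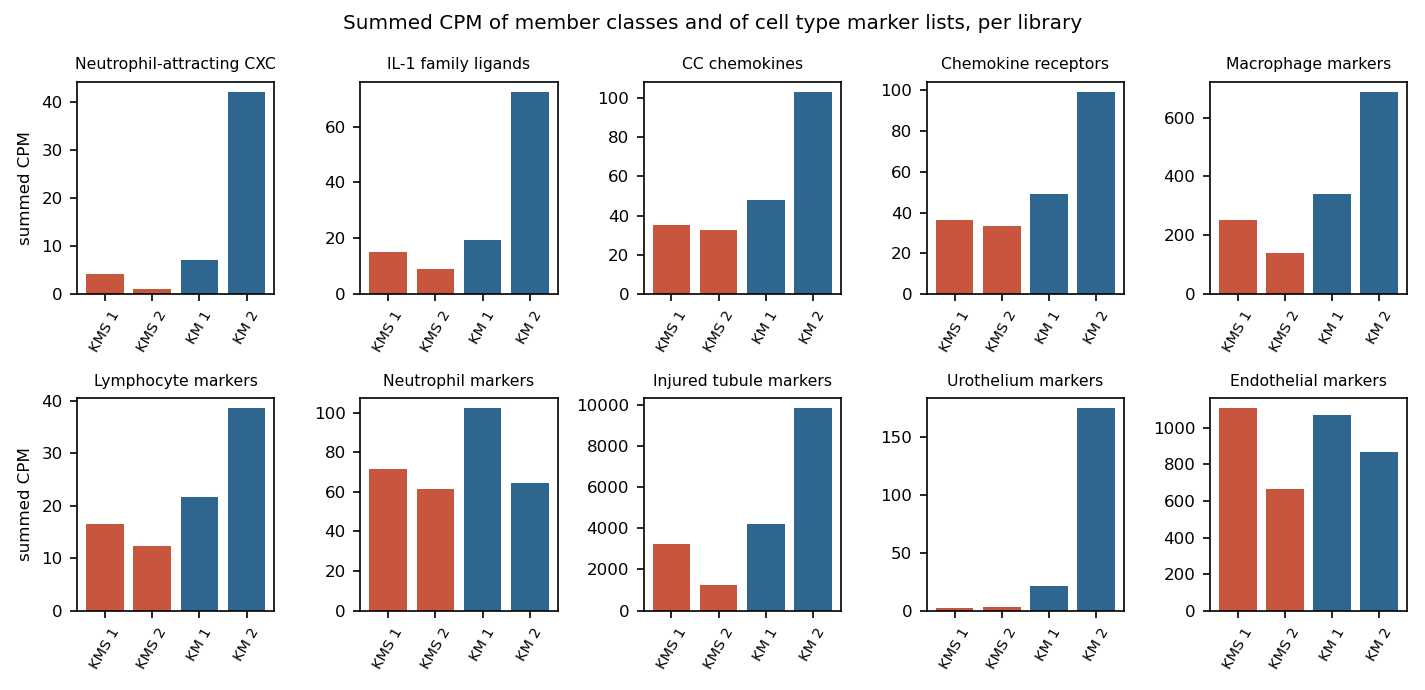
Summed CPM per library of 4 classes of members and of 6 lists of cell type markers; each bar is 1 library, with KMS in red and KM in blue. KM replicate 2 is highest for the 4 member classes and for macrophage, lymphocyte, injured tubule and urothelium markers, and not for neutrophil or endothelial markers.

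The CXC chemokines that attract neutrophils through Cxcr2 include 4 members within 1 stretch of chromosome 5 (90759298 to 90905938, GRCm38). These are Cxcl5, Cxcl3, Cxcl1 and Cxcl2, with other genes between them. Of the 4, 3 were lower in both KMS libraries, against 33.9% of all genes. Promoter sequences of Cxcl1, Cxcl2 and Cxcl3 are shown because all hold the same motif of the type bound by NF-kappaB, the factor that acts downstream of IL-1 receptors. They are RefSeq sequences of GRCm38.p6, 5′ to 3′ on the strand of the gene, for bases 130 to 1 before the annotated start, and capitals mark the motif. The interferon-inducible Cxcl10 is shown from base 230 before its start, with capitals for a motif of the interferon response type and for 1 of the NF-kappaB type.
Cxcl1, chr5:90891115-90891244, plus strand: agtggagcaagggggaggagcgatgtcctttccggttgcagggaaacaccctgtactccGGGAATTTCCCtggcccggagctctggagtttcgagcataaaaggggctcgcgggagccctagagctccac
Cxcl2, chr5:90903769-90903898, plus strand: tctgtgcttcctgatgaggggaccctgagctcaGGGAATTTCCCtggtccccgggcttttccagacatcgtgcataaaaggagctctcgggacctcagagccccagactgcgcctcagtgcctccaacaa
Cxcl3, chr5:90785971-90786100, plus strand: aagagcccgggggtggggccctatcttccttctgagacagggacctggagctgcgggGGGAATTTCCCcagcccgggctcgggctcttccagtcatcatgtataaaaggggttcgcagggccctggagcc
Cxcl10, chr5:92349020-92349119, minus strand: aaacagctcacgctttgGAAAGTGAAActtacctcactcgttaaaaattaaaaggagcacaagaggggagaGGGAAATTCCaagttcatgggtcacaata
The NF-kappaB type was searched on both strands as GGGA and TTCC with any 2 bases between them, and in Cxcl1, Cxcl2 and Cxcl3 matches on the 2 strands overlap in GGGAATTTCCC. It was found in 7 of 93 promoter windows of members, which is 7.53%, against 1.47% of 32851 windows of the same 300 bases. Besides those 4 genes, the windows of Ccr3, Il16 and Il22ra1 held it. The interferon response type, searched on both strands as GAAA, any 2 bases and GAAA, was in 4.30% of member windows and 3.44% of all windows, with Cxcl10, Cxcl14, Ccl19 and Il1rap as the member genes. TATAAA on the sense strand was in 17.2% of member windows against 8.32% of all, and the Stat type TTCCNGGAA on both strands in 1.08% against 1.15%. A match is a run of letters in these windows, and 77 of the 100 members had a window.

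Cxcl1 (chromosome 5, 90891245 to 90893121) had 1.24 and 0.73 CPM in KMS against 3.40 and 15.9 CPM in KM. Both KMS libraries were below both KM libraries, and KM replicate 2 was far above KM replicate 1. The log2 fold change with its SE was -3.26 ± 0.84 (edgeR adjusted p = 0.0999), and DESeq2 called it (adjusted p = 0.00167). Cxcl5 (90759298 to 90761625) had 0 counts in both KMS libraries against 28 and 332 counts in KM, or 1.51 and 20.3 CPM. It was at least 32.4-fold lower in KMS than in KM, taking 3 counts per library as the floor of KMS, and at least 4.48-fold lower without KM replicate 2. The call again depended on the test (edgeR adjusted p = 0.105, DESeq2 adjusted p = 0.0394), and without KM replicate 2 the edgeR adjusted p was 0.117. Cxcl3, at 0 in both KMS libraries, had 1 and 14 counts in KM. Cxcl2 had 3.0 and 0.24 CPM in KMS against 2.05 and 5.2 CPM in KM, so its groups overlapped (edgeR adjusted p = 0.484). Stretches of 75 bases shared between Cxcl2 and Cxcl3 made up 4.57% of Cxcl2. Only reads lying wholly within shared sequence cannot be assigned to 1 of the pair, and how many of the 150-base reads did so was not examined. Without KM replicate 2, the log2 fold change of Cxcl1 was -1.76 (edgeR adjusted p = 0.247).

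The other CXC chemokines and Cx3cl1 comprised low genes whose groups were separate and high genes whose groups overlapped. Cxcl14 (chromosome 13, 56288643 to 56296811), a chemokine made by epithelia, had 0.83 and 0.73 CPM in KMS against 4.48 and 7.04 CPM in KM. Its KMS replicates were close to each other, and KM replicate 2 was 1.57 times KM replicate 1. The log2 fold change with its SE was -2.87 ± 0.46 (edgeR adjusted p = 0.0697). DESeq2 called Cxcl14 (adjusted p = 0.000825), as did the authors' deposited table (adjusted p = 0.0181). Cxcl13 (chromosome 5, 95956939 to 95961068), which attracts B cells through Cxcr5, had 7.24 and 8.99 CPM in KMS against 18.1 and 27.4 CPM in KM. The groups did not overlap, with a log2 fold change of -1.49 ± 0.29 (SE, edgeR adjusted p = 0.0823; DESeq2 adjusted p = 0.00236). Cxcl17, a chemokine of mucosal epithelia, had 0 counts in both KMS libraries against 7 and 28 in KM, and KM replicate 1 alone was near the floor of KMS.

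At higher levels, Cxcl16, the membrane-bound ligand of Cxcr6, had 86.2 and 63.7 CPM in KMS against 65.4 and 93.7 CPM in KM. Cx3cl1, or fractalkine, the ligand of Cx3cr1, had 82.2 and 46.5 CPM in KMS against 68.0 and 69.5 CPM in KM. Both overlapped between genotypes, with log2 fold changes of -0.09 ± 0.25 and -0.09 ± 0.28 (SE, edgeR adjusted p = 0.854 and 0.860). Cxcl12, which acts through Cxcr4 and is removed by Ackr3, had 44.4 and 34.6 CPM in KMS against 37.9 and 21.8 CPM in KM. Its groups overlapped as well (log2 fold change 0.40 ± 0.30 SE, edgeR adjusted p = 0.430). The interferon-inducible ligands of Cxcr3 are Cxcl9, Cxcl10 and Cxcl11. Cxcl10 had 5.48 and 3.52 CPM in KMS against 5.24 and 11.9 CPM in KM, and Cxcl9 had 2.17 and 0.61 CPM in KMS against 1.19 and 2.94 CPM in KM. Both overlapped, with edgeR adjusted p-values of 0.278 and 0.673. Cxcl11, which RefSeq annotates as a transcribed pseudogene in this build, had 1 and 0 counts in KMS against 7 and 3 in KM.

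Of 17 CC chemokines, 9 were lower in both KMS libraries (33.9% of all genes), none was higher (25.3%) and 8 overlapped. Ccl2 (chromosome 11, 82035577 to 82037452), which draws monocytes through Ccr2, had 1.03 and 0.61 CPM in KMS against 2.75 and 5.94 CPM in KM. All KM values exceeded all KMS values, and the log2 fold change with its SE was -2.37 ± 0.58 (edgeR adjusted p = 0.0964; DESeq2 adjusted p = 0.0242). Without KM replicate 2 it was -1.71 (edgeR adjusted p = 0.288). Ccl7, Ccl12 and Ccl8, monocyte chemokines too, lie in the same stretch of chromosome 11 up to 82116799. They had 0 to 3 counts in a KMS library and 4 to 33 in a KM library, and all 4 were lower in both KMS libraries. For Ccl8 the counts were 0 and 1 in KMS against 4 and 33 in KM, and the depth-corrected ratio of KM over KMS was 19.0 with a 95% counting interval of 3.21 to 771 (0.383 to 190 without KM replicate 2). Ccl20, the ligand of Ccr6, had 0 and 1 counts in KMS against 7 and 35 in KM, a ratio of KM over KMS of 21.6 (95% counting interval 3.67 to 872, and 0.869 to 305 without KM replicate 2). These intervals and the floors cover counting error only.

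Ccl6 (chromosome 11, 83587886 to 83593087), a ligand of Ccr1 in mice, was the highest CC chemokine, with 8.17 and 6.32 CPM in KMS against 11.2 and 28.8 CPM in KM. The groups did not overlap, though the log2 fold change of -1.46 ± 0.47 (SE, edgeR adjusted p = 0.130; DESeq2 adjusted p = 0.0396) became -0.62 without KM replicate 2 (edgeR adjusted p = 0.496). Ccl9, also a ligand of Ccr1, had 5.17 and 2.55 CPM in KMS against 7.40 and 15.1 CPM in KM (edgeR adjusted p = 0.132). Ccl28, an epithelial chemokine that binds Ccr3, had 1.66 and 9.60 CPM in KMS against 7.67 and 28.6 CPM in KM, so replicate 2 was the higher library in both genotypes and the groups overlapped. At either replicate number, and so within either sex, the KMS library was the lower one. Ccl3, Ccl4 and Ccl5, chemokines of activated leukocytes, also overlapped, and their log2 fold changes ran from -0.27 to 0.36. Ccl19, a ligand of Ccr7, was at 0 in both KMS libraries against 5 and 9 counts in KM. Reads of Ccl19, Ccl21a and Ccl27a are uncertain, because 45.3%, 61.3% and 33.3% of their stretches of 75 bases occur in other genes.

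**Figure D4:**
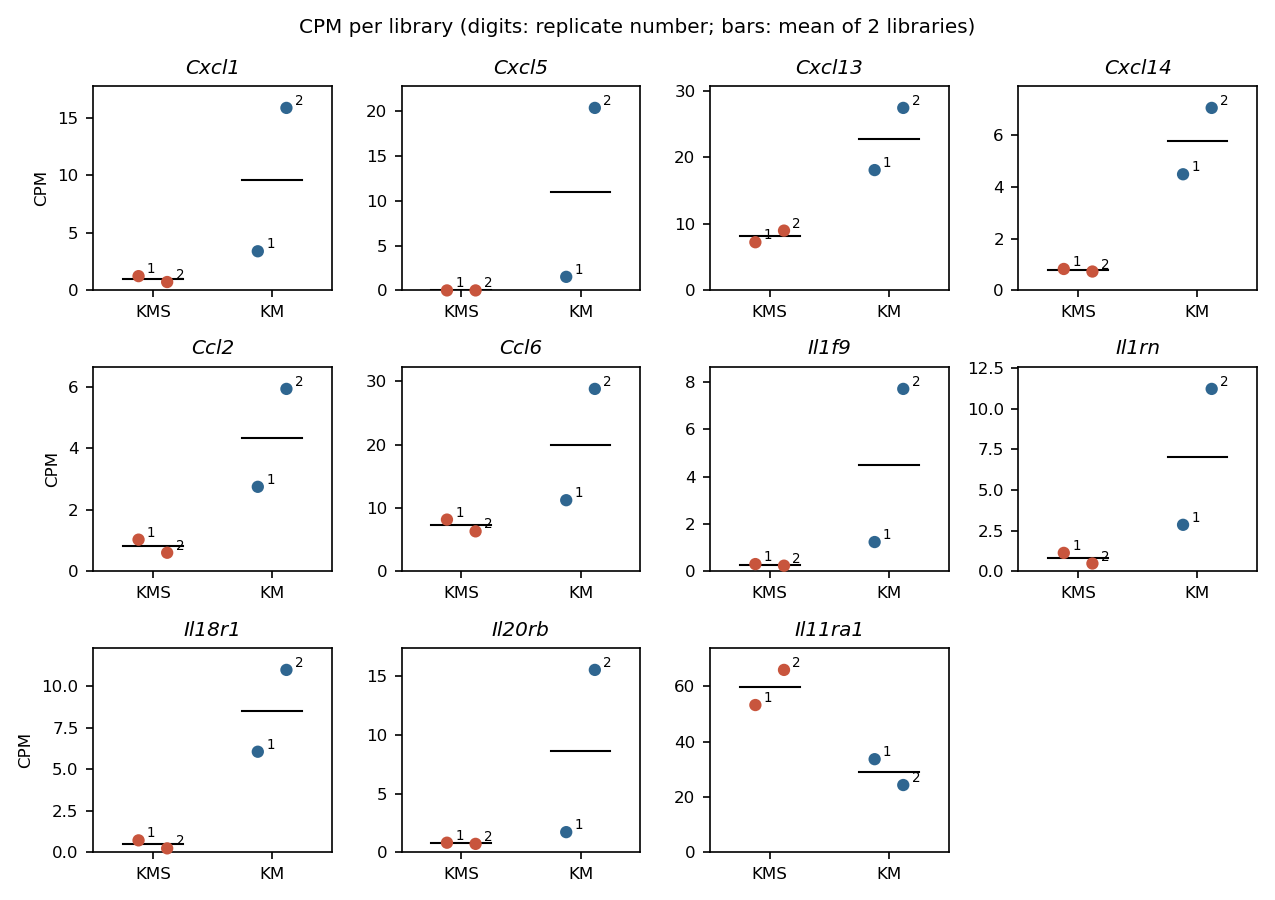
CPM in each library for 11 of the 12 members that DESeq2 called, with KMS left of KM, a bar at the mean of 2 libraries and the replicate number beside each point. In 10 panels both KMS points lie below both KM points, with KM replicate 2 on top, and in Il11ra1 both lie above.

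Among the 11 chemokine receptors, 6 were lower in both KMS libraries (33.9% of all genes) and 5 overlapped. KM replicate 2 held the highest CPM in 11 of 11, against 35.4% of all genes. Ccr2, the receptor of Ccl2 on monocytes, was the highest of them, with 16.1 and 16.6 CPM in KMS against 23.4 and 43.8 CPM in KM. The KMS replicates were nearly equal, and the log2 fold change with its SE was -1.03 ± 0.32 (edgeR adjusted p = 0.122). Ccr1 had 3.21 and 1.94 CPM in KMS against 5.56 and 9.18 CPM in KM, without overlap (edgeR adjusted p = 0.109). In the macrophage list given above, 11 of 12 measured markers were lower in both KMS libraries. So were 9 of 10 injured tubule, 9 of 9 urothelium and 7 of 8 fibroblast markers with a row. The part of any of these cell types in the receptor values was not tested. Cxcr2, the receptor of the neutrophil-attracting ligands, had 2.38 and 1.94 CPM in KMS against 4.75 and 6.00 CPM in KM. Of the 8 neutrophil markers with a row, 1 was lower in both KMS libraries (33.9% of all genes), 3 were higher (25.3%) and 4 overlapped. The lower marker was Csf3r, with 5.79 and 4.13 CPM in KMS against 9.56 and 20.6 CPM in KM. The 3 higher markers were Ngp, Camp and Ly6g. Ngp had 8.79 and 2.67 CPM in KMS against 2.54 and 0.49 CPM in KM. Camp had 1.55 and 0.61 CPM in KMS against 0.16 and 0.18 CPM in KM. For Ly6g the values were 0.52 and 0.49 CPM in KMS against 0.32 and 0.06 CPM in KM. Cxcr4, the receptor of Cxcl12, had 11.9 and 9.11 CPM in KMS against 8.26 and 24.1 CPM in KM, so only KM replicate 2 stood above the other libraries. Its log2 fold change of -0.62 ± 0.51 (SE, edgeR adjusted p = 0.471) was 0.35 without that library.

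Among the 3 atypical receptors, 1 was higher in both KMS libraries (25.3% of all genes) and 2 overlapped. Ackr3 (chromosome 1, 90203980 to 90215724), the scavenger of Cxcl12, had 35.5 and 69.1 CPM in KMS against 30.1 and 24.2 CPM in KM. Both KMS libraries were above both KM libraries, with a log2 fold change of 0.94 ± 0.33 (SE, edgeR adjusted p = 0.148; DESeq2 adjusted p = 0.0774). Ackr2, which removes inflammatory CC chemokines, had 4.96 and 3.40 CPM in KMS against 6.42 and 3.86 CPM in KM, with overlap. Ackr4 had 3 to 12 counts per library. The difference between atypical and other receptors was not tested.

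In the IL-1 family, 7 of 8 ligands and antagonists were lower in both KMS libraries (33.9% of all genes) and 1 overlapped. Il1f9 (chromosome 2, 24186476 to 24193567), described in the file as interleukin-36 gamma, an epithelial cytokine, had 0.31 and 0.24 CPM in KMS against 1.24 and 7.71 CPM in KM. Its log2 fold change with SE was -3.95 ± 1.09 (edgeR adjusted p = 0.105; DESeq2 adjusted p = 0.00728). Il1rn (24336860 to 24351491), the receptor antagonist, had 1.14 and 0.49 CPM in KMS against 2.86 and 11.2 CPM in KM, a log2 fold change of -3.07 ± 0.81 (SE, edgeR adjusted p = 0.102; DESeq2 adjusted p = 0.00523). For both genes the groups were separate, and KM replicate 2 was several times KM replicate 1. Without that library the log2 fold changes were -2.11 for Il1f9 and -1.78 for Il1rn (edgeR adjusted p = 0.367 and 0.287). Il1f8 and Il1f6, in the same stretch of chromosome 2 (24153172 to 24351491), were at 0 in both KMS libraries. Il1f6 had 6 and 47 counts in KM, of which the 6, at 0.32 CPM, were at the floor of KMS, and Il1f8 had 1 and 17.

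Il1a (chromosome 2, 129299609 to 129310186), an alarmin released by damaged epithelium, rested on 1 library. It had 5 and 4 counts in KMS against 18 and 437 in KM, or 0.52 and 0.49 CPM against 0.97 and 26.8 CPM. Neither test called it (log2 fold change -4.76 ± 1.58 SE, edgeR adjusted p = 0.136; DESeq2 adjusted p = 0.0642), and without KM replicate 2 the gene did not pass the filter on low counts. Gm14023 lies antisense over part of Il1a, and 7.95% of its stretches of 75 bases occur there. Il1b, an agonist secreted by macrophages, had 9.62 and 4.01 CPM in KMS against 9.5 and 15.5 CPM in KM, with overlap (edgeR adjusted p = 0.293). Il33, the nuclear alarmin that binds Il1rl1, had 3.41 and 3.64 CPM in KMS against 4.21 and 7.10 CPM in KM, without overlap (edgeR adjusted p = 0.314). Il18, the ligand of Il18r1, was near the floor, with 2 and 1 counts in KMS against 7 and 6 in KM.

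Il18r1 (chromosome 1, 40465552 to 40500854), the chain of the IL-18 receptor that binds the ligand, had the smallest p of all members. It had 7 and 2 counts in KMS against 112 and 179 in KM, which is 0.72 and 0.24 CPM against 6.05 and 11 CPM. Both KM libraries were several times above both KMS libraries, so this difference does not rest on KM replicate 2. The log2 fold change with its SE was -4.07 ± 0.60 (edgeR adjusted p = 0.0669; DESeq2 adjusted p = 5.6e-06), and the authors' deposited table gives an adjusted p of 0.0058. Without KM replicate 2 the log2 fold change was -3.57 (edgeR adjusted p = 0.0339), and Il18r1 was then the member called. Il18rap, the accessory chain, had 1.14 and 1.09 CPM in KMS against 1.35 and 3.61 CPM in KM, a smaller difference that edgeR did not call (adjusted p = 0.285). Il18bp, the decoy that neutralises IL-18, overlapped, at 8.17 and 6.80 CPM in KMS against 4.48 and 8.20 CPM in KM.

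Further receptors of the IL-1 family lie in the stretch of chromosome 1 around Il18r1 (40084692 to 40551707). Of the 6 members there, 5 were lower in both KMS libraries, against 33.9% of all genes. Il1r1, the signalling receptor of Il1a and Il1b, had 10.9 and 7.05 CPM in KMS against 14.1 and 14.1 CPM in KM (log2 fold change -0.66 ± 0.29 SE, edgeR adjusted p = 0.215). The exception was Il1rl2, the receptor of the interleukin-36 ligands, whose groups overlapped. Il1rap, the accessory chain on another chromosome that most of these receptors share, had 13.6 and 13.2 CPM in KMS against 13.3 and 12.2 CPM in KM (log2 fold change 0.07 ± 0.22 SE, edgeR adjusted p = 0.862), a direction that was reversed with library totals.

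The receptors of the IL-6 family held the clearest member that was higher in KMS. Il11ra1 (chromosome 4, 41760443 to 41769473), the chain that binds IL-11, had 53.2 and 65.8 CPM in KMS against 33.6 and 24.3 CPM in KM. Both KMS libraries were higher, with a log2 fold change of 1.04 ± 0.23 (SE, edgeR adjusted p = 0.0886; DESeq2 adjusted p = 0.00694), and the authors' deposited table gives an adjusted p of 0.0481. Its counts are uncertain, because 35.9% of its stretches of 75 bases occur in Il11ra2 or Gm13305 and its exons overlap those of Ccl27a on the opposite strand. Il11ra2, the near-identical copy, had 2.48 and 3.16 CPM in KMS against 1.19 and 1.04 CPM in KM, and all of its stretches of that length occur elsewhere. Ccl27a, in contrast, overlapped between genotypes, at 5.17 and 5.34 CPM in KMS against 5.78 and 4.59 CPM in KM. The ligand Il11 had 3 and 0 counts in KMS against 10 and 17 in KM.

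Il6st, or gp130, the signalling chain shared by the receptors of the IL-6 family, had the highest CPM of all members and did not separate the genotypes. It had 159 and 149 CPM in KMS against 137 and 172 CPM in KM, a log2 fold change of -0.01 ± 0.21 (SE, edgeR adjusted p = 0.989) whose sign turned with DESeq2 size factors. Il6ra, the chain that binds IL-6, had 10.6 and 12.1 CPM in KMS against 13.6 and 12.7 CPM in KM (log2 fold change -0.21 ± 0.24 SE, edgeR adjusted p = 0.598).

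Receptors of the IL-10 and IL-20 family went in both directions. Il20rb (chromosome 9, 100457719 to 100486473), the chain shared by the receptors of IL-19, IL-20 and IL-24, had 0.83 and 0.73 CPM in KMS against 1.73 and 15.6 CPM in KM. The groups did not overlap, yet the log2 fold change of -3.45 ± 1.09 (SE, edgeR adjusted p = 0.126; DESeq2 adjusted p = 0.00613) was -1.13 without KM replicate 2 (edgeR adjusted p = 0.550). Il24, a ligand of that receptor, was at 0 in both KMS libraries against 3 and 18 counts in KM. Il22ra1, the epithelial chain of the IL-22 receptor, had 6.00 and 11.5 CPM in KMS against 4.05 and 2.63 CPM in KM, so both KMS libraries were higher (log2 fold change 1.38 ± 0.44 SE, edgeR adjusted p = 0.127). It was singled out after its values were seen. Il10rb, the chain that pairs with it and with Il10ra, had 74.2 and 55.9 CPM in KMS against 54.6 and 55.5 CPM in KM (log2 fold change 0.24 ± 0.19 SE, edgeR adjusted p = 0.466). Il10ra, a chain of leukocytes, had 6.83 and 4.49 CPM in KMS against 5.02 and 12.8 CPM in KM, with overlap.

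The 5 tested IL-17 receptors had log2 fold changes between -0.71 and 0.15. Il17ra, the chain shared by the family, had 37.5 and 27.6 CPM in KMS against 27.3 and 35.7 CPM in KM (log2 fold change 0.05 ± 0.24 SE), with overlap. Il17rc and Il17rd had log2 fold changes of 0.09 ± 0.21 and 0.15 ± 0.23 (SE, edgeR adjusted p = 0.807 and 0.710). Il17rb, the chain that binds IL-25, was lower in both KMS libraries, at 6.41 and 7.29 CPM against 11 and 11.4 CPM in KM. Its replicates were close, and the log2 fold change with its SE was -0.71 ± 0.26 (edgeR adjusted p = 0.157).

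Among 13 genes of the common gamma chain, type 2 and IL-3 families, 4 were lower in both KMS libraries, 2 were higher and 7 overlapped. The 4 lower genes are 30.8% of the class, near the 33.9% of all genes, and 25.3% of all genes were higher. Il13ra1, a receptor chain of IL-13, had 56.4 and 83.2 CPM in KMS against 61.8 and 85.0 CPM in KM, so the replicates differed more than the genotypes. Il4ra, which pairs with it, had 41.3 and 25.3 CPM in KMS against 41.3 and 45.6 CPM in KM (log2 fold change -0.38 ± 0.26 SE, edgeR adjusted p = 0.389). Il2rg, the common gamma chain, had 21.5 and 14.5 CPM in KMS against 26.9 and 23.0 CPM in KM, and 26.0% of its stretches of 75 bases also occur in another gene model. Il3ra, the receptor chain of IL-3, had 3.0 and 3.16 CPM in KMS against 5.29 and 9.25 CPM in KM, without overlap (log2 fold change -1.24 ± 0.40 SE, edgeR adjusted p = 0.128).

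In the IL-12 family and the remaining interleukins, 3 of 7 genes were lower in both KMS libraries (33.9% of all genes) and 4 overlapped. Il34, a tubular ligand of the macrophage receptor Csf1r, had 5.69 and 11.7 CPM in KMS against 8.69 and 28.3 CPM in KM. Replicate 2 was higher than replicate 1 in both genotypes, and the groups overlapped. Within either sex, the KMS library was the lower one. The log2 fold change of -1.10 ± 0.61 (SE, edgeR adjusted p = 0.303) was 0.00 without KM replicate 2, which left KM with 1 sex and KMS with both. Il16, a chemoattractant of CD4 cells, had 5.07 and 2.67 CPM in KMS against 6.86 and 7.29 CPM in KM, without overlap (edgeR adjusted p = 0.226). The 33 members that did not pass the filter on low counts had between 0 and 48 counts in any library. None of them was higher in both KMS libraries, against 9.83% of all genes with a mean under 1 CPM.

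Set per kilobase of merged exons, so that genes can be compared in level, Cxcl16 was highest in the mean of the genotypes, at 28.5 and 21.1 CPM per kilobase in KMS against 21.7 and 31.0 in KM. Il13ra1, Cx3cl1, Il10rb and Il6st followed, and the libraries of each of these genes overlapped with those of the next. Cxcl13 came after them, at 6.30 and 7.82 CPM per kilobase in KMS against 15.7 and 23.9 in KM, so its place in the order differed between genotypes. Ackr3 and Il11ra1 were next, and they had the higher level in KMS. Most of the genes that DESeq2 called were far lower on this scale, for instance Cxcl1 at 0.66 and 0.39 CPM per kilobase in KMS against 1.81 and 8.46 in KM.

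**Figure D5:**
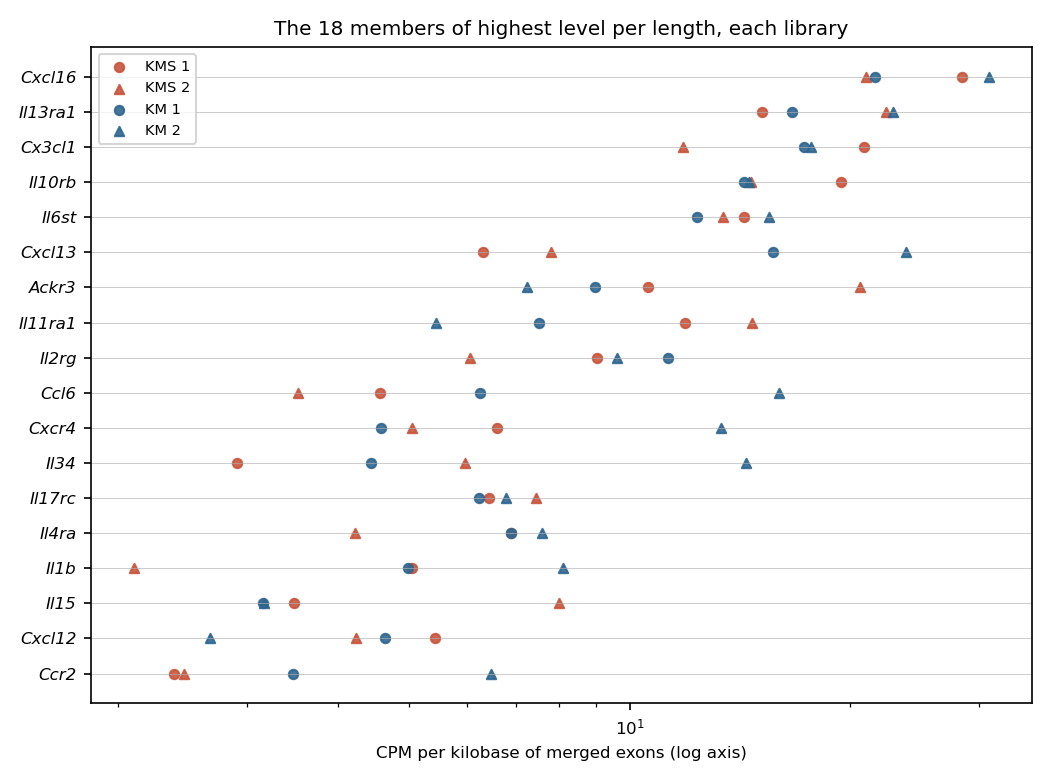
CPM per kilobase of merged exons (log axis) in each library for the 18 members of highest level per length, with KMS in red, KM in blue, circles for replicate 1 and triangles for replicate 2. The red and blue points of Cxcl16, Il13ra1, Cx3cl1 and Il6st interleave, those of Cxcl13 and Ccl6 have red on the left, and those of Ackr3 and Il11ra1 have red on the right.

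Genes of the same pathways that are outside the naming rule were counted from lists chosen with earlier results of these data known. The median log2 fold change of tested genes was -0.62 for the members and -0.01 for all genes. By level, it was -1.02 for members and -0.23 for all genes between 1 and 10 CPM. At 10 CPM or more it was -0.08 for members and 0.08 for all genes. Of 35 cytokines and receptors with other names, 32 had a row and 28 were tested. The edgeR test called 0 of them, with 15 lower and 2 higher at an unadjusted p under 0.05, and DESeq2 called 6 lower and 2 higher. Over all tested genes, 14.1% were lower and 12.2% higher at that edgeR p, and DESeq2 called 5.96% lower and 5.82% higher. Pf4, the platelet chemokine Cxcl4, had 0.31 and 0.24 CPM in KMS against 1.73 and 2.39 CPM in KM (edgeR adjusted p = 0.0823). Cx3cr1, the receptor of Cx3cl1 and also a macrophage marker, had 5.69 and 3.28 CPM in KMS against 10.9 and 23.5 CPM in KM, and DESeq2 called it (adjusted p = 0.00438). Sigirr, a receptor of the IL-1 family that dampens signals, was higher in both KMS libraries, at 78.5 and 81.4 CPM against 44.8 and 49.0 CPM in KM (log2 fold change 0.77, edgeR adjusted p = 0.0849; DESeq2 adjusted p = 0.0105). The other DESeq2 calls of this list were Csf3r, Lif, Osmr, Ifnlr1 and Tnf, lower in KMS, and Rarres2, or chemerin, higher in KMS.

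Of 23 genes of the Jak, Stat and Socs families, 22 were tested and edgeR called 0. At an unadjusted edgeR p under 0.05, 3 were lower and 0 higher, against 14.1% and 12.2% of all tested genes. The lower share was thus near that background. Socs2, an inhibitor of cytokine receptors, had 11.1 and 5.22 CPM in KMS against 25.3 and 28.3 CPM in KM, and it was called by DESeq2 (adjusted p = 0.00115) and in the authors' deposited table (adjusted p = 0.00359). Jak2 and Stat3 had the next smallest p-values (edgeR adjusted p = 0.168 and 0.176). Of 29 genes between the IL-1 receptors and NF-kappaB, 27 were tested and edgeR called 0. At an unadjusted edgeR p under 0.05, 6 were lower and 1 was higher. Both directions together were near the background of 26.3% of all tested genes, of which 14.1% were lower and 12.2% higher. Of the 29, 14 were lower in both KMS libraries (48.3%, against 33.9% of all genes). In the other direction, 2 were higher in both (6.90%, against 25.3%). Tnip1, an inhibitor of NF-kappaB, had 14.2 and 9.23 CPM in KMS against 27.3 and 36.4 CPM in KM, and it was called by DESeq2 (adjusted p = 0.00154) and in the authors' deposited table (adjusted p = 0.0145). Nfkbiz, a nuclear regulator induced by IL-1, was called by DESeq2 (adjusted p = 0.0197), and Irak3, an inhibitor of this relay, was not (adjusted p = 0.269).

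Genes known to respond to IL-6 and IL-1 had the lowest median of these lists. Of 20, 18 had a row and 17 were tested, with a median log2 fold change of -3.01. The edgeR test called 0, with 13 lower and 0 higher at an unadjusted p under 0.05, and DESeq2 called 10, all lower in KMS. Over all tested genes, 14.1% were lower at that edgeR p, and DESeq2 called 5.96% lower. Cp, which codes for ceruloplasmin, had 47.8 and 34.0 CPM in KMS against 123 and 138 CPM in KM, without overlap (edgeR adjusted p = 0.0662). Vcam1, an adhesion receptor for leukocytes, had 12 and 6.68 CPM in KMS against 46.2 and 76.5 CPM in KM. In the authors' deposited table Cp and Vcam1 had adjusted p-values of 2.37e-05 and 0.0131. The complement gene C3 showed the pattern of Cxcl1 and Il1rn, with 14.3 and 15.1 CPM in KMS against 159 and 1828 CPM in KM, so that KM replicate 2 stood far above KM replicate 1. The further DESeq2 calls of this list were Lcn2, Saa3, Fgg, Fgb, Icam1, Bcl3 and Timp1. Lcn2 and Vcam1 are also on the list of injured tubule markers.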

How the data were processed

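Per the labels' protocols, poly(A) RNA was made into libraries with a directional kit and sequenced in read pairs of 150 bases each. Tools listed in the submitters' processing notes, without their roles, are HISAT2, StringTie, FastQC, MACS2 2.1.1, Trimmomatic 0.35 and cutadapt 1.9.1, with the build GRCm38 (mm10). Not given in the sources used here are the counting program and whether it used strand. The authors deposited raw read counts per gene and library, per the file headers, and no gene summed to under 10. The deposited table also holds the authors' mean signal per genotype, the fold as a ratio, its log2 value, and a p-value with an adjusted p-value from a test not named in the sources used here. Value columns matched to no sample numbered 0, and a second sheet was not used.

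Groups follow the genotype labels. Counts of all genes were fitted with edgeR 4.0.16 in R 4.3.3 (TMM factors, genotype as the only term, quasi-likelihood F test). Genes were kept by filterByExpr (minimum count 10, minimum total 15), which left 15002, over which p-values were adjusted by Benjamini-Hochberg, with calls under 0.05. CPM is the count over the TMM-adjusted total, scaled to 1e+06. Log2 fold changes are KMS over KM, and standard errors come from the F statistic. With 2 against 2 libraries an exact permutation test cannot go below 0.333 (two-sided), so none is given. The floor of 3 counts equals 0.310 and 0.364 CPM in KMS and 0.162 and 0.184 CPM in KM. Fits were tested on simulated counts.

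The members, role classes and lists were chosen with earlier results of these data known. A member was named with its values if edgeR, DESeq2 or the authors' adjusted p called it, if it was among the 3 of highest count in its class that passed the filter, or if it had the smallest p of its class. This gave 45 members, of which 1 is not reported here, and others named by count or level were chosen after their values were seen. Positions and promoters come from RefSeq (GRCm38.p6), and merged exon lengths, exon overlaps and shared stretches of 75 bases from GENCODE M21. Alternatives were DESeq2 size factors, library totals, other filters, DESeq2 1.42.0, limma-voom (limma 3.58.1), a threshold of 0.10, a replicate block and each library left out. Robust estimation and limits on the mean level were added after the data were seen.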

Additional observations from a re-analysis of the deposited data

How the results depend on the processing

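The count of members called was 0 with edgeR and stayed at 0 with DESeq2 size factors, library totals, no filter, a filter of at least 1 CPM in 2 libraries and limma-voom. The DESeq2 Wald test called 12 of the 67 tested members, 17.9%, against 11.8% of all tested genes. At an adjusted p under 0.10, edgeR called 7 of the 67, against 8.11% of tested genes. Robust estimation called 2 (Cxcl14 and Il18r1), against 1.55% of tested genes. The cause of these differences was not tested. Leaving out each library in turn gave 0 to 26 calls. The 26 came without KM replicate 1, when 11.5% of all tested genes were called, and 1 came without KM replicate 2 (1.14%), namely Il18r1. The median log2 fold change of tested members was -0.62, and it ran from -1.38 without KM replicate 1 to -0.27 without KM replicate 2, beside medians of all genes of -0.004 and 0.008. It was -1.04 with no filter and -0.77 with library totals, which moved the median of all genes to -0.134. Over the 24 members with a mean of at least 10 CPM it was -0.08, beside 0.08 for all genes at that level.

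Of 45 named members, 33 kept their direction under every alternative run. With library totals, Il1rap, Il17ra and Il17rc became -0.05, -0.08 and -0.04. Il6st, at -0.01, became 0.02 with no filter, and 0.00 (above zero) with DESeq2 size factors and with the DESeq2 test. Leaving out 1 library each, the log2 fold change ran from -0.15 to 0.27 for Il17ra, from -0.36 to 0.22 for Il13ra1, from -1.71 to 0.25 for Cxcl9, from -0.53 to 0.28 for Cx3cl1, from -0.31 to 0.20 for Cxcl16, from -0.15 to 0.17 for Il6st, from -0.12 to 0.75 for Il18bp, from -0.61 to 0.13 for Ackr2, from -1.16 to 0.18 for Il10ra and from -1.18 to 0.35 for Cxcr4. The log2 fold change ran from -3.96 to -1.76 for Cxcl1, from -10.85 to -7.21 for Cxcl5, from -4.72 to -2.11 for Il1f9, from -3.79 to -1.78 for Il1rn, from -4.28 to -1.13 for Il20rb, from -5.04 to -3.52 for Il18r1, from -2.81 to -1.71 for Ccl2 and from -1.97 to -0.62 for Ccl6. Where this left a genotype with 1 library, the fit assumes that it varies like the other genotype. That genotype was then of 1 sex, while the other genotype held both.

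The titles do not say that a replicate number pairs libraries, but same-numbered libraries were of the same sex by Xist and Y-linked counts, and their deviations correlated at 0.117 across genes. A fit with the replicate block called 7 members, 10.4% of those tested, against 5.43% of all tested genes. Ccl28 (adjusted p of 0.0255), Cxcl5, Cxcl13, Cxcl14, Il1f9 and Il18r1 were lower in KMS, and Il11ra1 was higher. The same fit gave Il6st a log2 fold change of 0.00.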
